A study of Mus musculus with 6 samples.

Results

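The genes described here move glucose into the cell, break it down to pyruvate and lactate, or answer to low oxygen. They are 42 named genes: glucose transporters, hexokinases, the enzymes of glycolysis and their regulators, the genes that settle where pyruvate goes, and the hypoxia-inducible factor HIF-1 alpha with its oxygen sensors and targets. Each was found on the array through the RefSeq transcript that its probe carries, and all 42 were found among 20145 matched genes. Expression was compared between 3 samples with the Plk2 -/- genotype (Plk2 null) and 3 wild-type samples. Every sample was a preparation of primary mammary epithelial cells made by dissociating glands of female 129sv/C57Bl6 mice at 8 weeks. No treatment is listed for either group, and the sole named difference between them is Plk2, which encodes a kinase of the polo-like family. The labels do not say how many animals gave a sample, so the p-values below measure the spread between these samples. Which part of Plk2 is deleted, and in which cells, the sources used here do not give.

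Glycolysis turns glucose into pyruvate in the cytosol. Hexokinase traps glucose as a phosphate, phosphofructokinase makes the committed step, and pyruvate is then either reduced to lactate by lactate dehydrogenase and exported by monocarboxylate transporters, or oxidised in mitochondria by pyruvate dehydrogenase, which pyruvate dehydrogenase kinases switch off. When oxygen is short, the prolyl hydroxylases encoded by Egln genes no longer mark HIF-1 alpha for destruction, and HIF-1 raises many glycolytic genes together with Vegfa, Car9, Bnip3 and others by binding DNA at the core letters ACGTG or GCGTG. In the mammary gland glucose is also the precursor of lactose, the main sugar of milk.

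The samples were hybridised to Agilent one-colour arrays. Levels are given as the log2 of the processed signal, centred so that 0 is the 75th percentile of gene spots on the same array. A level of a probe can be compared between samples but not with another probe. Null arrays had 51.2% to 54.7% of their probes well above background, against 50.2% to 52.2% for wild-type arrays. Plk2 had processed signals of 1.87 to 2.44 in null samples, not well above background, and of 1160 to 1472 in wild-type samples, so the labels hold for this gene. All null arrays lay in the second row of the slide and all wild-type arrays in the first, so the row and the genotype cannot be told apart. Mammary epithelial markers were well above background on every array. The summed level of the 8 listed ones (linear signal over the 75th percentile) ran from 1484 to 1899.7 in null and from 1502 to 1554 in wild-type samples. Most of this sum is the signal of Krt18 (difference 0.06), so it does not measure the share of epithelial cells. These markers did not move together: Elf5, a factor of the luminal secretory lineage, differed by 1.70 (limma adjusted p = 0.0565), the basal keratins Krt14 and Krt5 by 0.91 and 0.96 (0.179 and 0.247), and the oestrogen receptor gene Esr1 by -0.92 (0.125). Their part in the results below was not tested. Markers of other cells were present too. All 10 lymphocyte markers were lower in null samples at an unadjusted p under 0.05, with summed levels of 5.81 to 12.3 against 24.5 to 42.4 in wild type. All 6 fibroblast markers were lower, 3 of them at that p, with sums of 1123 to 1606 against 1690.2 to 1839.9. All 6 endothelial markers had negative differences (median -0.28), 0 of them at that p. The adipocyte, erythroid and skeletal muscle lists had median differences of 0.23, -0.0004 and -0.17, with 0 genes at that p. All 7 tested proliferation genes were higher, by 0.47 to 2.59 with a median of 1.95. Their sums were 62.3 to 103.8 against 40.1 to 50.9. Most of each sum is the signal of Pcna, which had the smallest difference, so the sums understate the other genes. Fewer cells of a type and less RNA per cell cannot be told apart in such samples.

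All 42 genes were well above background on all 6 arrays, so none entered through a single group. After adjustment over the 24609 entries of the array, 0 of the 42 passed the threshold of 0.05 (limma, Benjamini-Hochberg), where 0.553% of all entries did. At an unadjusted p under 0.05 by limma, 7 genes were higher and 11 lower in null samples, 42.9% of the 42, against 22.8% of all entries (13.1% higher and 9.65% lower). The 42 genes were chosen with earlier results of these data known, so these shares and those that follow are not a test of the list. Samples of both groups did not overlap for 8 genes that were higher, which is about the share of all entries (19.2%). They did not overlap for 10 genes that were lower, against 12.1% of entries. In both directions together this was 42.9% of the 42, against 31.3% of entries. The median difference, null minus wild type, was -0.10 over the 42 genes and 0.03 over all entries. By direction alone, 17 differences were positive and 25 negative. This balance depended on the scaling: on spike-in controls the median of the 42 genes was 0.19 (0.31 over all entries), 27 differences were positive and 15 negative, and 11 genes were higher and 2 lower at an unadjusted p under 0.05. The shares of all entries at that p with spike-in scaling are not given here, so those counts are no result about the 42 genes. Of the 11 lower genes, 2 were glucose transporters and 3 hypoxia targets, and of the 7 higher genes, 3 belonged to pyruvate and lactate metabolism.

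**Figure D1:**
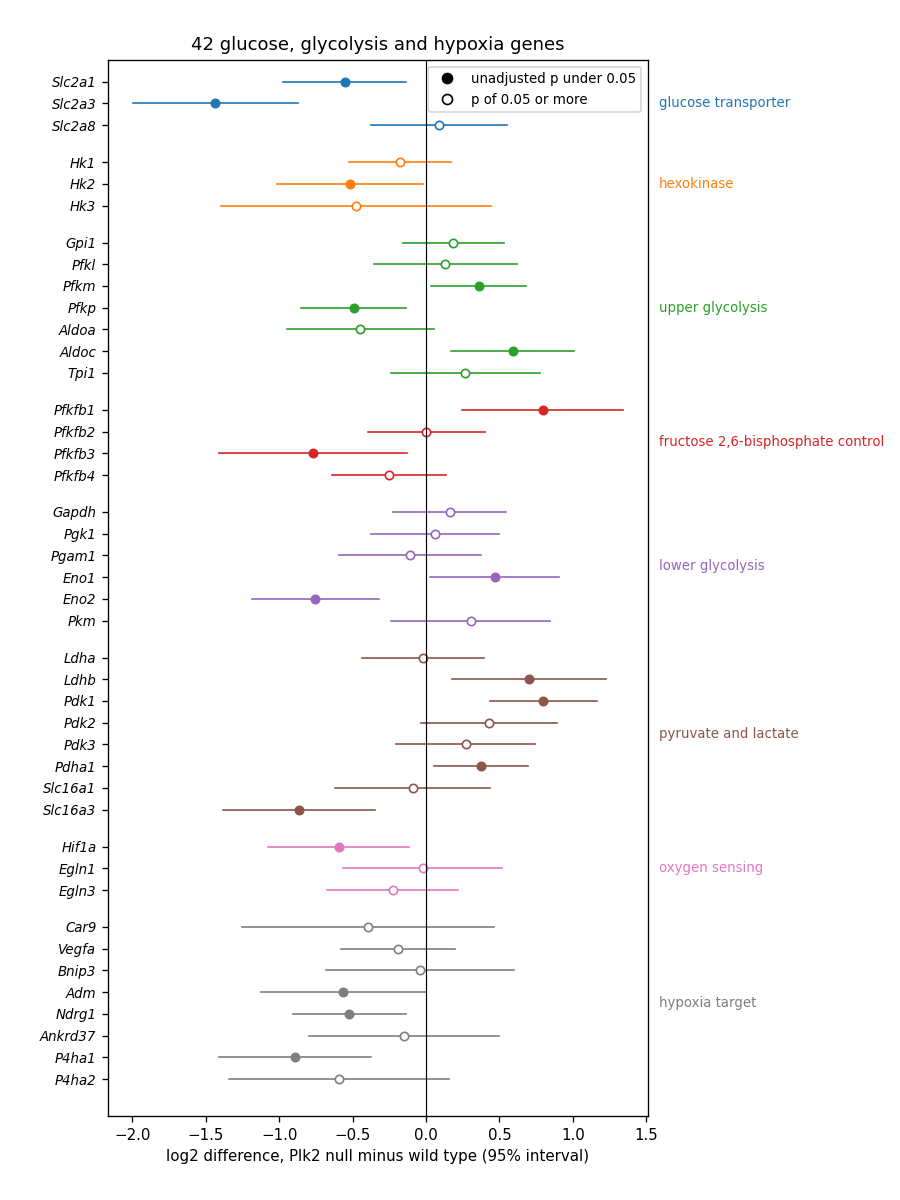
Difference between Plk2 null and wild-type samples on the log2 scale (horizontal axis, n = 3 each) for the 42 genes grouped by role, with 95% intervals from the limma fit. Filled points have an unadjusted p under 0.05: 11 lie left of 0 and 7 right of it, and the 8 hypoxia targets lie left of 0 with this scaling, 3 of them right of it with spike-in scaling.

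Among the glucose transporters, Slc2a3 and Slc2a1 were lower in null samples and Slc2a8 was not separated. Slc2a3 encodes GLUT3, a high-affinity transporter of neurons and white blood cells. Its log2 level was -0.30, -0.64 and 0.04 in null samples 1, 2 and 3, against 1.29, 0.80 and 1.32 in wild-type samples 1, 2 and 3. The groups lay well apart, and the difference was -1.43 (SE 0.24), or 2.70-fold lower, the largest in size among the 42 genes, with an adjusted p of 0.0537 by limma. Lymphocyte markers had a median difference of -2.44 in the same samples, and their part in this value was not tested. Slc2a1 encodes GLUT1, the basal transporter of most epithelia. It had levels of 4.09, 3.97 and 4.45 in null samples, against 4.60, 4.73 and 4.84 in wild type. Every null sample was below every wild-type sample, by 1.47-fold on average (difference -0.55, SE 0.18, limma adjusted p = 0.141). Slc2a8, an intracellular transporter, differed by 0.09 (95% interval -0.37 to 0.55), with null sample 3 above the rest.

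All 3 hexokinase genes had negative differences, although Hk1 turned to 0.11 when arrays were scaled on spike-in controls, and Hk2 alone had groups that did not overlap. Hk2, the inducible hexokinase of proliferating and insulin-sensitive cells, had levels of 2.56, 2.04 and 2.57 in null samples, against 3.13, 2.89 and 2.70 in wild type. The difference was -0.52 (SE 0.21, limma adjusted p = 0.205). Hk1, the widely expressed form, differed by -0.18 (95% interval -0.52 to 0.17). Hk3, a form found mostly in myeloid cells, differed by -0.47 with a wide interval of -1.39 to 0.45, its samples spreading by an SD of 0.56 in null and 0.59 in wild type. The 7 tested macrophage and neutrophil markers had a median difference of -0.26, 2 of them higher and 1 lower at an unadjusted p under 0.05.

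The 7 genes of the upper part of glycolysis went both ways. Phosphofructokinase has liver, muscle and platelet forms, encoded by Pfkl, Pfkm and Pfkp. The platelet form Pfkp was lower, at 1.42, 1.37 and 1.14 in null samples against 1.91, 1.79 and 1.70 in wild type (difference -0.49, SE 0.15, limma adjusted p = 0.132). The muscle form Pfkm was higher, at 2.21, 2.33 and 2.43 in null samples against 1.97, 1.99 and 1.92 in wild type (0.36, SE 0.14, adjusted p = 0.186). The groups lay apart for both of these genes, whereas they overlapped for Pfkl (0.13, 95% interval -0.36 to 0.62). Aldolase splits fructose 1,6-bisphosphate. Aldoc, the aldolase form known from brain, stood at 6.17, 6.13 and 6.08 in null samples, against 5.38, 5.38 and 5.85 in wild type, a difference of 0.59 (SE 0.18, adjusted p = 0.127). Null samples lay within an SD of 0.05 of each other and all above wild type. Aldoa, the common form, pointed the other way at -0.45 (SE 0.21, adjusted p = 0.26), with null sample 3 inside the wild-type range. Gpi1, the glucose phosphate isomerase, and Tpi1, the triose phosphate isomerase, differed by 0.18 and 0.27 and overlapped.

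Fructose 2,6-bisphosphate, made and removed by the 4 PFKFB enzymes, is the strongest activator of phosphofructokinase. Pfkfb3, the form with the highest kinase activity and a known hypoxia target, was lower, at 4.22, 3.69 and 4.65 in null samples against 4.72 to 5.14 in the 3 wild-type samples. The difference was -0.77 (SE 0.27, limma adjusted p = 0.162), with no overlap, and its second probe gave -0.94. Pfkfb1, the form known from liver and muscle, was higher, at -0.45, -0.04 and -0.88 in null samples against -1.20, -1.17 and -1.38 in wild type (0.79, SE 0.23, adjusted p = 0.122). Here too the groups lay apart, although null samples spread over 0.42 (SD). Pfkfb2 and Pfkfb4 differed by 0.00 and -0.25 and overlapped.

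The enzymes of the lower part of glycolysis showed small differences except for the enolases. Gapdh, Pgk1 and Pgam1, which carry glyceraldehyde 3-phosphate to 2-phosphoglycerate, differed by 0.16, 0.06 and -0.11, with limma adjusted p-values of 0.583, 0.857 and 0.768. Their 95% intervals reached from -0.59 at the lowest to 0.55 at the highest, so changes of that size remain possible. Pkm, the pyruvate kinase outside liver and red cells, differed by 0.30 (SE 0.23) and overlapped. Eno2, the enolase known from neurons, had levels of 0.03, -0.40 and 0.11 in null samples, against 0.73, 0.71 and 0.58 in wild type. That is 1.69-fold lower with no overlap (difference -0.75, SE 0.18, adjusted p = 0.0928). Eno1, the common enolase, was at 5.84, 6.34 and 6.14 in null samples, against 5.81, 5.48 and 5.64 in wild type. It was thus higher in every null sample, in null sample 1 by a narrow margin (0.47, SE 0.18, adjusted p = 0.2). Gapdh, Aldoa, Tpi1, Pgk1, Pgam1, Eno1, Pkm and Ldha have processed pseudogene copies in the mouse genome, and probes for them may also bind transcripts of such copies.

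Among the genes that decide the fate of pyruvate, Pdk1 had the smallest p of the 7 higher genes. Pdk1, a pyruvate dehydrogenase kinase and a known HIF-1 target, had levels of 0.22, 0.33 and 0.05 in null samples, against -0.48, -0.57 and -0.74 in wild type. The spread within either group was at most 0.14 (SD), and Pdk1 stood 1.74-fold higher in null samples (difference 0.80, SE 0.15, limma adjusted p = 0.068). Pdk2 was also higher in each null sample, at 0.68, 1.18 and 1.30 against 0.61, 0.67 and 0.59 in wild type (0.43, adjusted p = 0.246), and Pdk3 overlapped at 0.27. Pdha1, the catalytic subunit that these kinases inactivate, was higher as well, at 2.52, 2.65 and 2.64 in null samples against 2.18, 2.19 and 2.31 in wild type (0.38, SE 0.13, adjusted p = 0.169).

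Lactate genes split. Ldha, the form that favours lactate production, was at 8.00, 8.09 and 8.41 in null samples and 8.34, 8.02 and 8.20 in wild type, a difference of -0.02 (95% interval -0.43 to 0.39). Ldhb, the form of oxidative tissues, was at 4.14, 4.41 and 3.86 in null samples, against 3.14, 3.44 and 3.73 in wild type. Every null sample exceeded every wild-type sample, 1.63-fold on average (0.70, SE 0.22, limma adjusted p = 0.138). Slc16a3 encodes MCT4, the lactate exporter of glycolytic cells and a known HIF-1 target. Its levels were 1.11, 0.88 and 1.57 in null samples, against 2.22, 2.07 and 1.86 in wild type. This was 1.82-fold lower without overlap (-0.87, SE 0.22, adjusted p = 0.0969), and a second probe for the same transcript gave -0.95. Slc16a1, which encodes MCT1, differed by -0.09 (95% interval -0.62 to 0.44).

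**Figure D2:**
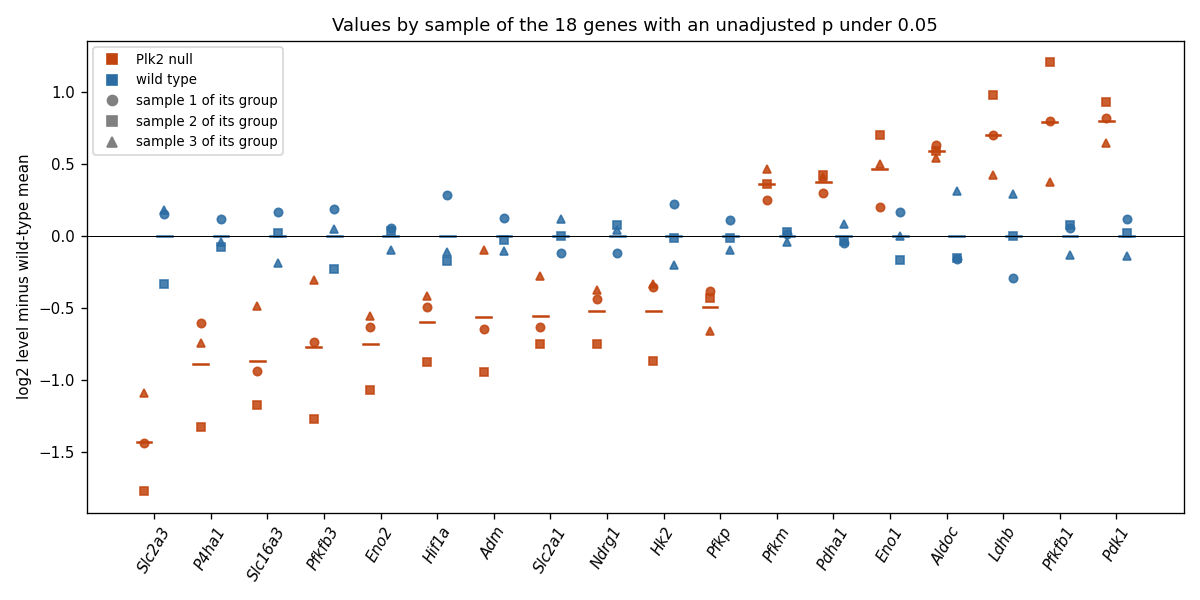
Log2 level minus the wild-type mean (vertical axis) in each sample for the 18 genes with an unadjusted p under 0.05, Plk2 null left and wild type right for each gene, with dashes for the means of 3 samples. Null sample 2 is the lowest null sample for 10 of the 11 lower genes, and Adm is the only one of the 18 whose groups overlap.

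In the oxygen-sensing group, Hif1a itself was lower and the hydroxylase genes were not separated. Hif1a had levels of 2.22, 1.84 and 2.30 in null samples, against 3.00, 2.54 and 2.60 in wild type. The groups did not overlap and the difference was -0.59 (SE 0.20, limma adjusted p = 0.157). HIF-1 alpha is controlled mainly through protein stability, which an array does not measure. Egln1, the main oxygen sensor, differed by -0.02 (95% interval -0.56 to 0.52), and Egln3, a hypoxia-inducible hydroxylase, by -0.23 (-0.67 to 0.22).

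All 8 hypoxia targets had negative differences, with a median of -0.46, but with spike-in scaling Vegfa, Bnip3 and Ankrd37 turned positive (0.10, 0.25 and 0.14). An unadjusted p under 0.05 was reached by 3 of the 8, and by 9.65% of all entries in that direction. P4ha1, a subunit of the prolyl hydroxylase that matures collagen, was at 0.48, -0.24 and 0.34 in null samples, against 1.20, 1.01 and 1.04 in wild type. No sample overlapped, and the gene was 1.86-fold lower (-0.89, SE 0.22, limma adjusted p = 0.0948). The second probe gave -0.72. Its paralogue P4ha2 was at 1.84, 1.51 and 2.23 in null samples and 3.07, 2.08 and 2.22 in wild type, and overlapped (-0.59, SE 0.31). Fibroblasts make much of the collagen of the gland, and their 6 markers had a median difference of -0.38 in the same samples. The part of fibroblast RNA in the P4ha1 value was not tested.

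Ndrg1, a hypoxia-induced gene of epithelial differentiation, was at 6.08, 5.77 and 6.15 in null samples, against 6.41, 6.60 and 6.57 in wild type. It was lower in every null sample (-0.52, SE 0.16, limma adjusted p = 0.134). Adm, which encodes the vasodilator peptide adrenomedullin, was at 1.85, 1.55 and 2.40 in null samples, against 2.63, 2.47 and 2.40 in wild type. Null sample 3 reached the lowest wild-type sample, and the difference of -0.56 (SE 0.24) had an unadjusted limma p of 0.0499. The remaining targets overlapped. Vegfa, the main angiogenic factor, differed by -0.19 (95% interval -0.58 to 0.20) and Car9, a carbonic anhydrase strongly induced by hypoxia in tumours, by -0.40 (-1.26 to 0.46). Bnip3, a mitophagy receptor, differed by -0.04 and Ankrd37 by -0.15. Vegfa, Car9, Bnip3 and Ankrd37 were therefore not separated at this number of arrays, and their intervals reach to both sides of 0.

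Promoter sequence was set beside these values, because HIF-1 binds the letters ACGTG. Known HIF-1 targets were among the genes that were lower, such as Slc16a3, and among those that were higher, such as Pdk1. RefSeq promoters (GRCm38.p6, 250 bases before to 50 after each start) were given for 40 of the 42 genes, all except Slc2a3 and Ndrg1. On either strand, ACGTG was present in 31 of 60 promoters of these genes (51.7%), against 19.6% of 32851 promoters. GCGTG was present in 55% of them against 32.4%. The motif CACGTG, which contains ACGTG on both strands and is bound by other factors of the same protein class, was present in 13.3% against 7.15%. The list was chosen to hold known HIF-1 targets, and promoters of the same gene can overlap and share a site. A higher share of these letters could therefore come with the choice of genes, and it was not tested. By gene, ACGTG was found for 2 of 7 that were higher, 6 of 9 that were lower and 19 of 24 with an unadjusted p of 0.05 or more. The following stretches show the letters in their surroundings. Each was printed because it holds ACGTG, so the stretches cannot compare genes of opposite direction. They come from the 7 genes among the 18 with the motif before a start (for Aldoc it lay after the start), printed 5′ to 3′ on the strand of the gene, with capitals for ACGTG on either strand.
Slc2a1 (chr4:119108679-119108743, plus strand): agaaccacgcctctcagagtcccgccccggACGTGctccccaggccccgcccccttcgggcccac
Hk2 (chr6:82774472-82774536, minus strand): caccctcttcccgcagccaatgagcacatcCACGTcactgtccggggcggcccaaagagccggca
Pfkm (chr15:98092424-98092488, plus strand): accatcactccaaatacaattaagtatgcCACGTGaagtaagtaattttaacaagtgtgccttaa
Pfkfb3 (chr2:11502108-11502172, minus strand): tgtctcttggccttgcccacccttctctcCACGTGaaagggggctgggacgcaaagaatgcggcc
Slc16a3 (chr11:120949023-120949066, plus strand): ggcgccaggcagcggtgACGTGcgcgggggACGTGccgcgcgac
Hif1a (chr12:73907767-73907831, plus strand): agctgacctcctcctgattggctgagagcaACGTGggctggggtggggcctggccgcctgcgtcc
P4ha1 (chr10:59323250-59323295, plus strand): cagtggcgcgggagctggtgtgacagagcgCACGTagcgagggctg
Slc16a3 carries the motif 2 times within its stretch, close to the start. In Hk2 and P4ha1 it runs on the opposite strand as CACGT, and in Pfkm and Pfkfb3 it forms the palindrome CACGTG. Pfkm was higher in null samples and the other 6 were lower. Pfkm has further annotated starts, and some of their promoters have no ACGTG. A match of letters does not show binding, and no binding was measured here.

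A ratio of related genes on the same array is not moved by a constant scaling of that array. Of 12 such pairs, 5 had null and wild-type samples that did not overlap. Each had an exact 2-sided permutation p of 0.1, the smallest that 3 against 3 samples allow (0.24 adjusted over the 12 pairs). Among single entries of the array 31.3% did not overlap, and no such share was computed for other pairs. Each of the 5 pairs holds a gene whose own groups lay apart, so the count is not separate support. The log2 ratio of Eno2 to Eno1 was -5.81, -6.74 and -6.02 in null samples, against -5.08, -4.77 and -5.06 in wild type, 2.33-fold lower. For Aldoc over Aldoa it was -1.78, -1.70 and -2.33 in null samples, against -3.38, -3.02 and -2.53 in wild type, 2.05-fold higher. The probes of a pair differ in brightness, so the change of a ratio can be read and its level cannot. Slc2a3 over Slc2a1 was lower by 0.88 and Pfkp over Pfkl by 0.62 on the log2 scale, and Pdk1 over Pdha1 was higher by 0.42. Ldhb over Ldha was higher by 0.72 with overlap, null sample 3 lying among the wild-type samples (exact permutation p = 0.2). For the remaining 6 pairs the groups overlapped, among them Hk2 over Hk1 and P4ha2 over P4ha1.

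**Figure D3:**
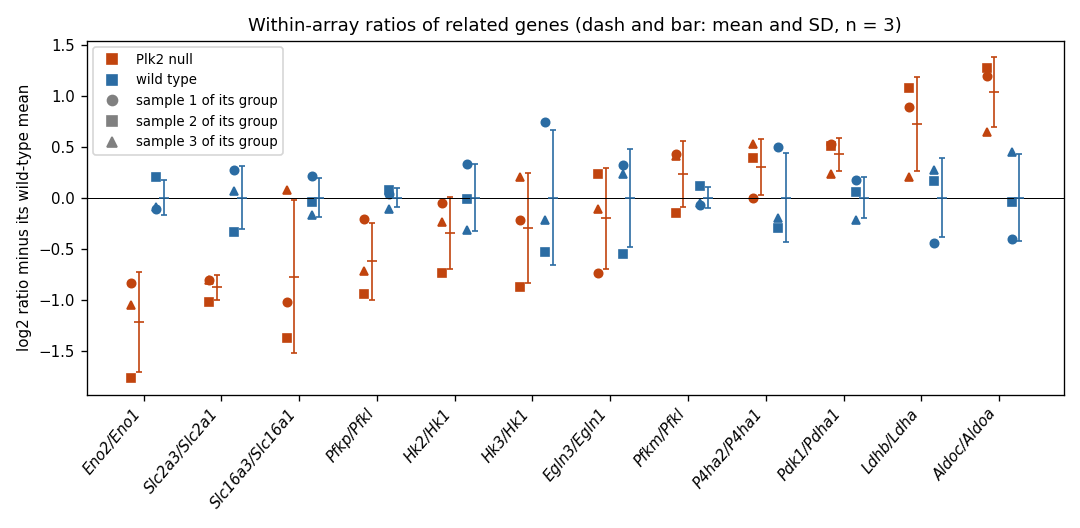
Log2 ratio of both genes on the same array, minus the wild-type mean (vertical axis), for 12 pairs, with Plk2 null left and wild type right, points for samples and a dash with bar for mean and SD (n = 3). Groups lie apart for Eno2/Eno1, Slc2a3/Slc2a1, Pfkp/Pfkl, Pdk1/Pdha1 and Aldoc/Aldoa.

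Further genes of the same pathways held 2 that passed the adjusted threshold over all entries. Slc2a10 encodes GLUT10, a facilitative transporter, and was at -2.87, -2.66 and -2.33 in null samples, against -0.92, -0.88 and -0.69 in wild type. It was 3.46-fold lower (difference -1.79, SE 0.18, limma adjusted p = 0.0208) with no overlap. Pdk4, the pyruvate dehydrogenase kinase that fasting and fatty acids induce, was at 4.07, 4.42 and 3.83 in null samples, against 1.81, 2.36 and 2.54 in wild type. It was 3.67-fold higher (1.87, SE 0.25, adjusted p = 0.0425), so all 4 kinases of this family had positive differences. Both calls were lost when any sample except null sample 3 was left out, with adjusted p-values up to 0.0892 for Slc2a10 and 0.126 for Pdk4, while their sizes stayed between -1.94 and -1.67 and between 1.66 and 2.02. With no filter and with the replicate block both calls were lost too, and that of Pdk4 also with quantile normalization (adjusted p = 0.0532), so Slc2a10 was called in 10 and Pdk4 in 9 of 17 alternatives. With normexp background correction Slc2a10 differed by -1.10.

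Of the 12 tested genes of other glucose transport and glycolysis, 3 were higher and 1 lower at an unadjusted p under 0.05, shares to be read, like those of the lists that follow, against 13.1% and 9.65% of all entries. Bpgm, which makes 2,3-bisphosphoglycerate, differed by 0.53 (limma adjusted p = 0.0996) and Slc2a4, the insulin-responsive transporter GLUT4, by 0.54 (0.137). The remaining higher gene, Slc2a9, had groups that overlapped. It had 2 of 3 wild-type arrays well above background and could have entered through the null arrays alone. In the 11 tested genes of mitochondrial pyruvate use, 2 were higher and 0 lower, Pdk4 and Slc16a7. Slc16a7, which encodes MCT2, entered the test through the null arrays alone, since no wild-type array had it well above background, so its place in that count is no support. Null samples had it at least 1.68-fold higher, and with normexp its difference was 0.23. Pdp2, a phosphatase that reactivates pyruvate dehydrogenase, differed by -0.36 (0.249). Among 15 genes of gluconeogenesis and glycogen 3 were higher and 0 lower: the fructose bisphosphatases Fbp1 (0.73, limma adjusted p = 0.14) and Fbp2, and the phosphoglucomutase Pgm1 (0.41, 0.191). Fbp2 had 1 of 3 wild-type arrays well above background and could have entered through the null arrays alone. Its difference of 1.93 was 0.37 with normexp.

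Against the same 13.1% higher and 9.65% lower of all entries, the pentose phosphate pathway had 0 higher and 1 lower of 7, G6pdx, its entry enzyme, at 4.002, 4.13 and 4.56 in null samples against 5.23, 4.66 and 4.68 in wild type (-0.62, limma adjusted p = 0.181). Rpia and Tkt, of its later steps, differed by 0.31 and 0.33. For galactose use and lactose synthesis 1 of 5 was higher, the galactokinase Galk1 (0.73, adjusted p = 0.118). Lalba, which encodes the alpha-lactalbumin of lactose synthase, was at 2.13, 2.30 and 0.40 in null samples against 0.68, 0.54 and 0.21 in wild type, so null sample 3 overlapped, and Slc35a2, the UDP-galactose transporter, differed by -0.32. None of 7 further genes of the HIF machinery had an unadjusted p under 0.05 by limma. Epas1, which encodes HIF-2 alpha, differed by -0.34, Cited2 by -0.23 and Vhl by -0.07. Of 20 other hypoxia targets, 1 was higher and 5 were lower (13.1% and 9.65% of all entries), 0 past the adjusted threshold, and the median was 0.08. Hmox1, the haem oxygenase gene, was at 6.57, 6.19 and 6.98 in null samples, against 7.81, 8.08 and 7.77 in wild type (-1.31, SE 0.23, adjusted p = 0.0575). Cxcr4, a chemokine receptor of leukocytes, differed by -0.68 and Ppp1r3c, a glycogen-targeting subunit, by -0.82. In this wider list 11 differences were positive and 9 negative.

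**Figure D4:**
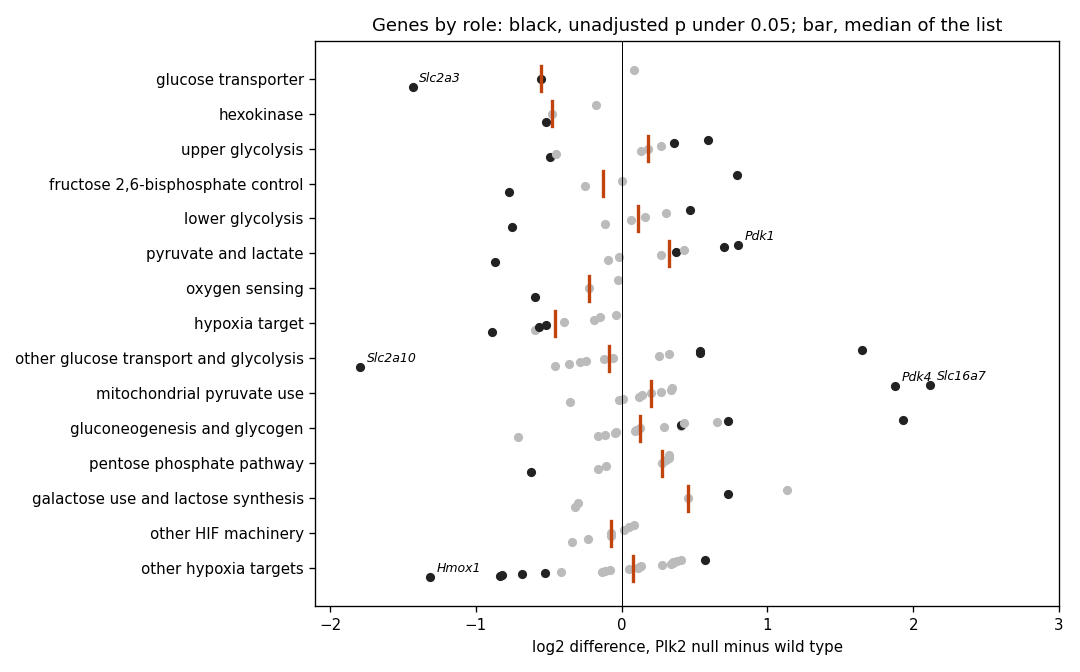
Log2 difference, Plk2 null minus wild type (horizontal axis), of each tested gene in the 8 roles and in 7 further lists of the same pathways, black where the unadjusted p is under 0.05, with a bar at each list's median. Slc2a10 and Pdk4 are the genes past the adjusted threshold, and the 8 hypoxia targets lie below 0 with this scaling whereas the wider list has 11 above and 9 below.

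Null samples were not alike. Among the 11 genes that were lower, null sample 2 was the lowest null sample for 10 and null sample 3 the highest for 9. Among the 7 that were higher, null sample 2 was the highest for 5. Relative to wild type, the median log2 shift of proliferation genes was 1.22, 3.15 and 1.34 for null samples 1, 2 and 3, and that of lymphocyte markers was -2.90, -3.19 and -1.34, so null sample 2 was also the farthest from wild type in these lists. Their part in the values of the 42 genes was not tested. Without null sample 2, 3 genes were higher and 6 lower at an unadjusted p under 0.05, and without null sample 3 the counts were 5 and 13. Calls over all entries at the adjusted threshold moved too, from 19 higher and 29 lower without null sample 2 to 240 and 498 without null sample 3. Shares of all entries at the unadjusted p are not given for these fits, so the counts are not a trait of the 42 genes. Further probes of 12 genes, 20 in all, gave the same sign as the reported probe in 20 cases and differed from it by at most 0.32.

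The direction of small differences depended on the scaling of the arrays. On spike-in controls the median of all entries was 0.31 in place of 0.03, and the median of the 42 genes was 0.19 in place of -0.10, below that of all entries under both scalings. This shift was not shared by all null samples. The log2 spike-in signal stood 3.29, 3.54 and 3.89 above the 75th percentile in null samples 1, 2 and 3. In wild-type samples it stood 3.77 to 3.93 above, so null sample 3 lay within the wild-type range. The 18 genes kept their signs with 4 scalings, and 11 genes were then higher and 2 lower at an unadjusted p under 0.05 with spike-in scaling. No share of all entries at that p is given for spike-in scaling. Of the 11 lower genes, 8 then had differences over 1.5 times smaller: Slc2a1 (-0.27), Hk2 (-0.23), Pfkp (-0.21), Pfkfb3 (-0.48), Eno2 (-0.47), Hif1a (-0.31), Adm (-0.28) and Ndrg1 (-0.23). Of the 7 higher genes, Pfkm (0.65), Pdha1 (0.66) and Eno1 (0.75) had differences over 1.5 times larger. Slc2a3 differed by -1.15 and Pdk1 by 1.09. In the authors' deposited table, 4 of the 42 genes passed its own thresholds (an unadjusted p of 0.01 and a fold of 1.4). Slc2a1, Slc2a3 and Eno2 were lower and Pdk1 was higher in null samples. The share of all entries past these thresholds is not given here, so this count is no result about the 42 genes. Pdha1 had the smallest p of the 42 there, but its signed fold of 1.29 lay below the fold threshold. In the authors' deposited table Slc2a3 had a signed fold of -2.31 and Pdk1 of 1.54.

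**Figure D5:**
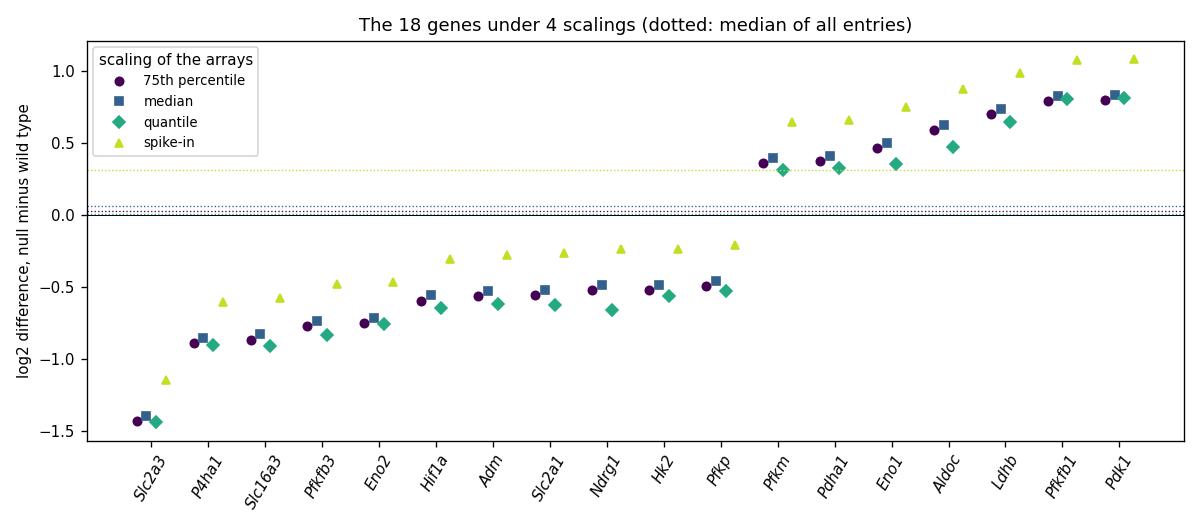
Log2 difference, Plk2 null minus wild type (vertical axis), of the 18 genes under 4 scalings of the arrays, with dotted lines at the median of all entries under each. Spike-in scaling lifts every gene along with that median, from 0.03 to 0.31, and no gene of the 18 crosses 0.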

How the data were processed

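RNA from 6 samples was labelled with Cy3 and hybridised to one-colour Agilent arrays. The deposited scanner files hold spot intensity that Agilent Feature Extraction had background-corrected, per the file headers, with no normalization between arrays. The authors' deposited table of the whole series holds intensity whose columns share 1 distribution (quantile-normalized), a p-value per row, a linear ratio with wild type on top, and a signed score that gives the fold with null on top, per the file headers. All per-sample columns of the files were mapped to samples (0 left unused).

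From the processed intensity, spots flagged as outliers were left out, log2 values were centred on each array's 75th percentile of gene spots, and spots of a probe were averaged. A probe was kept where at least 3 of 6 arrays had it well above background, and the brightest probe stood for a gene. Accessions without versions matched RefSeq (GRCm38.p6) for 26582 of 55681 probes. The 24609 entries were fitted with limma 3.58.1 in R 4.3.3 (lmFit and eBayes, no covariate, Benjamini-Hochberg, threshold 0.05), and the code was tested on simulated data. Where a group was not well above background, the fold is a bound, taken from the lowest signal among probes well above background. The number of arrays limits the precision.

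The 42 genes, the further lists, the markers and the 12 pairs were chosen with earlier results of these data known. Named genes are Plk2, all 42, and up to 3 genes with the smallest p from each further list, with Slc2a9 added. Correlations of same-numbered samples' deviations from their group means were -0.12, 0.04 and -0.02, so the numbers were not taken to pair samples. Other background correction, scaling, filters, probe rules, moderation, array weights, a replicate block, left-out samples and the authors' deposited values were tried as alternatives.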

Additional observations from a re-analysis of the deposited data

How the results depend on the processing

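The 18 genes with an unadjusted p under 0.05 kept their sign in 17 of 17 alternatives each, while counts of calls moved. Counts are given as higher and lower in null samples. Shares of all entries at an unadjusted p under 0.05 are not given for the alternatives. Counts at that p therefore show how the numbers moved and are no result about the listed genes. Over all entries (54 and 82) the calls were 686 and 518 with normexp, 176 and 164 with median centring, 250 and 125 with spike-in scaling, 5 and 26 with no filter, 203 and 179 with a filter on all 6 arrays, 443 and 388 with trend and robust moderation, 556 and 694 with array weights, and 378 and 378 from the authors' deposited table. Of the 42 genes, 1 and 4 were called with normexp, 0 and 1 with the filter on all 6 arrays, 1 and 1 with trend and robust moderation, 2 and 3 with array weights, and 1 and 3 from the authors' deposited table. Spike-in scaling gave 11 and 2 at an unadjusted p under 0.05, 24 and 2 in the further lists and a median of 0.19, and quantile normalization a median of -0.17. The replicate block gave 2 and 6 calls over all entries, and 4 and 9 of the 42 genes at an unadjusted p under 0.05. Whether the numbers pair the samples is not known, and they were not taken to do so. The cause of these shifts was not tested.

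Leaving out 1 sample gave 1 to 240 higher and 6 to 498 lower calls over all entries, 0 to 1 higher and 0 to 2 lower among the 42 genes, 3 to 8 higher and 6 to 13 lower at an unadjusted p under 0.05, and 5 to 11 lower in the further lists. Without null sample 1 the calls over all entries were 1 and 6, without null sample 2 they were 19 and 29, and without null sample 3 they were 240 and 498.

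Signs turned only for small differences. With spike-in scaling they were Hk1 0.11, Pfkfb4 0.036, Pgam1 0.18, Ldha 0.27, Slc16a1 0.20, Egln1 0.27, Egln3 0.061, Vegfa 0.10, Bnip3 0.25, Ankrd37 0.14, Cited2 0.056 and Vhl 0.22. With quantile normalization they were Gapdh -0.018, Pgk1 -0.026 and Egln1 0.013, with median centring Ldha 0.016 and Egln1 0.013, with array weights Slc2a8 -0.043, Slc16a1 0.037 and Egln1 0.020, and from the authors' deposited table Pgk1 -0.047. With 1 sample left out the ranges crossed 0 for Slc2a8 (-0.096 to 0.18), Pfkl (-0.059 to 0.28), Pfkfb2 (-0.12 to 0.078), Pgk1 (-0.050 to 0.18), Pgam1 (-0.24 to 0.024), Ldha (-0.14 to 0.063), Slc16a1 (-0.24 to 0.14), Egln1 (-0.20 to 0.14), Bnip3 (-0.27 to 0.15) and Ankrd37 (-0.45 to 0.0038), and for the ratios Hk3 over Hk1 (-0.56 to 0.075) and Egln3 over Egln1 (-0.48 to 0.063).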
